A study of Homo sapiens with 4 samples.

Results

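Matrix metalloproteinases (MMPs), ADAM and ADAMTS proteases and the tissue inhibitors of metalloproteinases (TIMPs) were examined in U937 cells, a human myelomonocytic line from a histiocytic lymphoma, after knock-down of PIR. Its product, pirin, is a nuclear protein that binds iron. The genes were those whose only symbol in the platform annotation was MMP, ADAM or ADAMTS followed by digits, or TIMP1 to TIMP4, each read from its brightest probe set. This gave 64 of 19775 annotated genes: 22 MMPs, 20 ADAMs, 18 ADAMTSs and 4 TIMPs. The ADAMs counted here include ADAM5 and ADAM6, which are transcribed pseudogenes and were dim. ADAM7, ADAM29 and ADAMTS7 had no probe set of their own and were not analysed here.

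The knock-down cells carried a lentiviral short hairpin against PIR (shPIR#7 in the pSICO-R vector), and the control cells carried the same vector without a hairpin, so both groups were transduced. The design text states that PIR protein was not detectable by Western blot in the knock-down cells. A single hairpin was used, and whether the cells were clonal is not given in the sources used here. Per the design text, RNA of 3 extractions was mixed into 1 pool per condition, and each pool was hybridised to 2 Affymetrix HG-U133 Plus 2.0 arrays. There is thus 1 sample per condition: an SD here describes repeat hybridisations of one RNA (n = 2 arrays), the condition has no replicate check, and no p-value was computed.

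MMPs are zinc proteases that cut extracellular matrix, cytokines and other proteases, and monocytes and macrophages use them to cross and remodel tissue. Most ADAMs are anchored in the membrane and release the outer parts of cytokines and receptors, while ADAMTSs are secreted and act on proteoglycans, procollagen or clotting factors. TIMPs bind the active sites of these enzymes, with preferences that differ between the 4 inhibitors.

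Differences are on the scale of log2(signal + 18), knock-down minus empty vector, where 18 is near the lower quartile of signal, and folds on this scale understate the change of dim genes. The 60th percentile of each array, a signal of 116.4 to 125.5, served as the brightness limit, and a gene counted as measured if 1 pool or both had its 2 arrays at or above it. The size rule asked for a difference of 2-fold or more between pools, for the same sign and a size of 0.5 or more when each knock-down array was set against each empty-vector array, and for a higher pool with its 2 arrays at the limit. The arrays were scaled alike, with median intensities of 62.5 and 68.5 in the knock-down pool against 70.8 and 72.1 in the empty-vector pool. PIR had intensities of 83.4 and 91.5 in the knock-down pool against 1812.9 and 1881.7 in the empty-vector pool, which is 17.7-fold lower. Of 10 myelomonocytic marker genes on the platform, 8 were measured, with summed signals of 82649 to 87326 in the knock-down pool against 81079 to 81607 in the empty-vector pool. ELANE and LYZ carry most of these sums, and single markers differed both ways without overlap: AZU1 by -0.69 and PRTN3 by -0.41, CD4 by 0.84, CSF3R by 0.54, ELANE by 0.41 and CEBPA by 0.26. Markers of other cell types that were measured were COL1A1 of 6 for fibroblasts, CD79A of 3 for B cells and PECAM1, which monocytic cells also express, of 3 for endothelial cells. Their lists summed to 290.9 to 322.7, 398.9 to 409.1 and 5864.9 to 6060.1 on knock-down arrays, against 359.5 to 361, 359.9 to 563.6 and 3468.5 to 3553.1 on empty-vector arrays. No marker of T cells (of 5), erythroid cells (of 2) or epithelial cells (of 5) was measured, with sums of at most 196.8 on knock-down arrays and 199.8 on empty-vector arrays, and no marker met the size rule. In pooled bulk RNA, fewer expressing cells and less RNA per cell cannot be told apart.

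Most of the 64 genes were dim in both pools. The measured ones were 16, or 25%, against 52.0% of all annotated genes, and they comprised 5 MMPs, 6 ADAMs, 3 ADAMTSs, TIMP1 and TIMP2. One gene, MMP7, met the size rule as higher, where 2.43% of 10288 measured genes did. One gene, MMP25, met it as lower, where 1.10% of measured genes did. With 1 gene in each direction among 16, the counts are too small to set against these shares.

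Arrays of the 2 pools did not overlap for 7 measured genes that were higher in the knock-down pool (MMP7, MMP2, ADAM17, ADAM15, ADAMTS9, TIMP1 and TIMP2), where 40.9% of measured genes did so. They did not overlap for 4 that were lower (MMP25, ADAM10, ADAM8 and ADAM22), where the share over measured genes was 31.2%. Positive differences were found for 9 of the 16, near the 55.2% of all measured genes. Their median difference was 0.06, beside 0.05 over all measured genes. Without empty-vector replica 1 the median was -0.23, beside 0.04 over all measured genes. That value covers the 19 genes of the families then measured, so it is not a shift of the same 16. MMP7 and ADAMTS10 were counted as measured through the knock-down pool alone and ADAM8 through the empty-vector pool alone. MMP7 and ADAM8 had no array at the limit in the other pool, so the choice of measured genes favours their differences, while ADAMTS10 had 1.

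**Figure D1:**
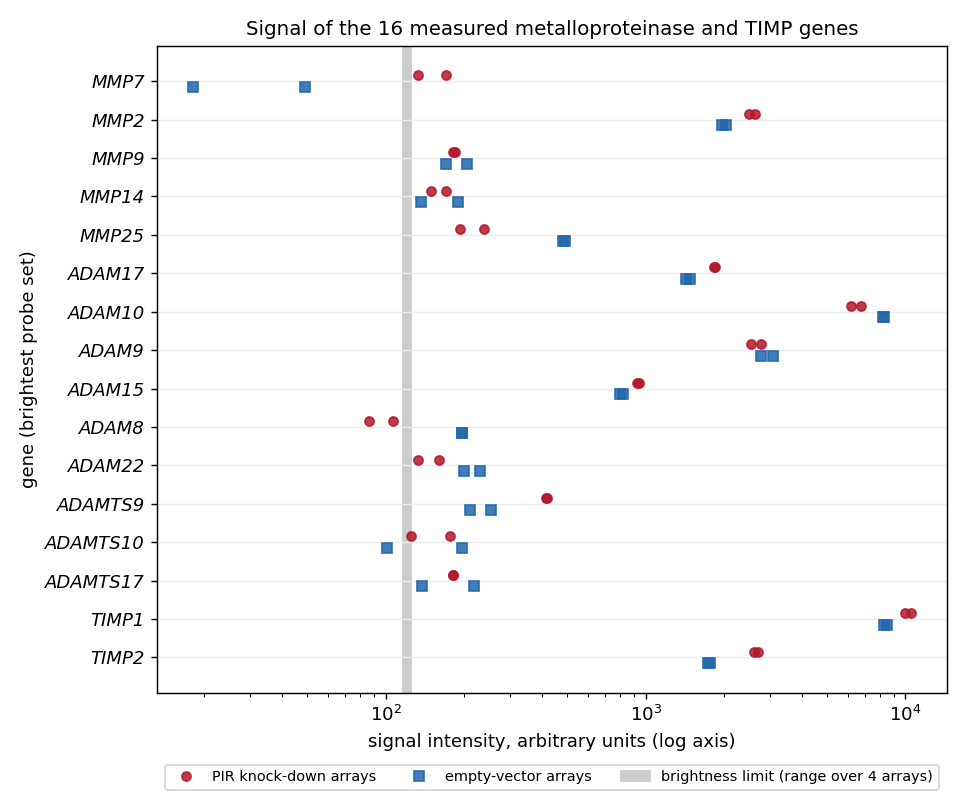
Signal intensity on each array (log axis) for the 16 measured genes, with knock-down arrays as circles above empty-vector arrays as squares; the grey band is the brightness limit, 116.4 to 125.5. MMP7 lies left of the band on both empty-vector arrays and right of it on both knock-down arrays, and ADAM8 shows the opposite.

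MMP7, or matrilysin, is a small secreted MMP without the hemopexin domain of most relatives and is known to cut matrix proteins and release membrane proteins such as TNF. Its single probe set, 204259_at, had intensities of 132.8 and 171.4 in the knock-down pool against 48.8 and 18.2 in the empty-vector pool. Both knock-down arrays lay above the brightness limit and both empty-vector arrays far below it. The mean was 152.1 ± 27.3 in the knock-down pool and 33.5 ± 21.6 with the empty vector (SD, n = 2 arrays). The difference was 1.78, or 3.44-fold, and single pairs of arrays differed by 1.17 to 2.39. The size of the difference depended on the pseudocount, with 2.34 for none and 1.10 for a pseudocount of 72, and MMP7 was not measured under a limit at the 75th percentile.

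The promoter of MMP7 is shown because it is the only gene that met the size rule and has an entry in the RefSeq promoter table used here. The 250 bases before its start on the minus strand are chr11:102530748-102530997 in GRCh38.p14, written 5′ to 3′, with motif matches in capitals.
MMP7: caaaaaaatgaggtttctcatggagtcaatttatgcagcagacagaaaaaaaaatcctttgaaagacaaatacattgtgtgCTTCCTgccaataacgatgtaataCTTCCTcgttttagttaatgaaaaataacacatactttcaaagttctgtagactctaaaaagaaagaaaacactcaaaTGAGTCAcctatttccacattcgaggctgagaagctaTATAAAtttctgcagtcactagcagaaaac

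Both strands were searched for 5 motifs, and none of the matches in MMP7 overlapped another. The AP-1 motif TGANTCA, bound by FOS and JUN dimers, matched once, 67 to 61 bases before the start. This motif was present in 6.60% of 27305 promoters of the same length and in 4 of the 36 promoters available for the 64 genes. The PEA3 motif AGGAAG of ETS factors matched on the opposite strand at 169 to 164 and at 145 to 140 bases before the start, and 28.7% of all promoters held it. The TATA motif TATAAA matched at 30 to 25 bases before the start and was held by 11.1% of promoters. No match to the GC box GGGCGG (42.3% of promoters) or to the NF-kB consensus (9.57%) was in this window. A match describes the letters alone and is not evidence of binding.

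MMP7 lies at one end of a run of 9 neighbouring MMP genes on chromosome 11, and it was the only measured gene among them. The other 8, in order MMP20, MMP27, MMP8, MMP10, MMP1, MMP3, MMP12 and MMP13, were dim. MMP1, the interstitial collagenase, had intensities of 52.7 and 90.8 in the knock-down pool against 163.5 and 108.7 in the empty-vector pool. Its arrays did not overlap, but only 1 of the 4 reached the limit. MMP8, the neutrophil collagenase, had 56.7 and 65.1 in the knock-down pool against 82.4 and 94.7 in the empty-vector pool, all below the limit. MMP12, the macrophage elastase, had 6.0 and 28.8 in the knock-down pool against 19.5 and 38.9 in the empty-vector pool, and these arrays overlapped.

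The gelatinases MMP2 and MMP9 cut denatured collagen and basement-membrane collagen. MMP2 had intensities of 2493.2 and 2642.4 in the knock-down pool against 2046.6 and 1976.4 in the empty-vector pool. Both knock-down arrays were above both empty-vector arrays, with means of 2568 ± 106 for knock-down and 2012 ± 49.6 for empty vector. The difference was 0.35, or 1.27-fold, with array-by-array differences of 0.28 to 0.42. Its 2 other probe sets were dim. MMP9 had 184.7 and 180.8 in the knock-down pool against 206.0 and 170.7 in the empty-vector pool. Its arrays overlapped, and the difference of -0.03 was within the spread between arrays and turned to 0.08 after median scaling.

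Membrane-type MMPs sit on the cell surface, MMP14 through a transmembrane segment and MMP25 through a lipid anchor, and MMP25 is known from neutrophils. MMP25 had intensities of 238.2 and 193.4 in the knock-down pool against 490.8 and 481.6 in the empty-vector pool. All 4 arrays were above the brightness limit and those of the pools did not overlap, with means of 215.8 ± 31.7 for knock-down and 486.2 ± 6.51 for empty vector. The difference was -1.12, or 2.17-fold lower in the knock-down pool, with array-by-array differences of -1.27 to -0.96.

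The second MMP25 probe set, 207289_at, differed by -0.43, with 84.3 and 102.0 in the knock-down pool against 135.7 and 126.0 in the empty-vector pool. MMP25 missed the 2-fold limit, with differences of -0.96 with a pseudocount of 72, -0.995 with arrays scaled to equal medians, -0.77 over both probe sets and -0.98 without knock-down replica 2. MMP14, an activator of MMP2 on the cell surface, had 149.4 and 170.3 in the knock-down pool against 137.0 and 189.8 in the empty-vector pool. These arrays overlapped, and the difference was -0.02, turning positive (0.10) after median scaling. MMP14 was measured through this probe set, 160020_at, alone. Its other probe sets were dim, with signals of 8.4 to 34.4 and differences of 0.46, 0.21 and 0.47.

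Among the ADAMs, ADAM17 and ADAM10, the main shedding enzymes, had differences of opposite sign, and neither reached 2-fold. ADAM17, which releases TNF from the cell surface, had intensities of 1843.2 and 1830.9 in the knock-down pool against 1427.1 and 1476.0 in the empty-vector pool. The pools did not overlap, and the difference was 0.34, or 1.26-fold. Its other probe sets gave 0.47 and 0.09.

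ADAM10, which cuts Notch receptors and the low-affinity IgE receptor, had 6714.9 and 6159.2 in the knock-down pool against 8166.3 and 8269.6 in the empty-vector pool. Both knock-down arrays were lower, with a difference of -0.35, or 1.28-fold. The other 2 ADAM10 probe sets differed by only -0.11 and -0.10, so the size of the difference rests on 202603_at.

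ADAM9, a membrane-bound protease of broad expression, had 2784.2 and 2543.9 in the knock-down pool against 3088.4 and 2773.7 in the empty-vector pool. These arrays overlapped, the difference was -0.14, and a second measured probe set gave -0.02. ADAM15, an adhesion-related protease, had 943.9 and 924.0 in the knock-down pool against 817.1 and 797.9 in the empty-vector pool. The arrays did not overlap, the difference was 0.21, or 1.15-fold, and the second probe set gave 0.33.

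ADAM8, known from granulocytes and monocytes, had intensities of 107.0 and 85.9 in the knock-down pool against 197.4 on both empty-vector arrays. Both knock-down arrays were below the brightness limit and both empty-vector arrays above it. The difference was -0.92, or 1.89-fold lower, which misses the 2-fold limit, and with no pseudocount it was -1.04 and met the size rule. The second ADAM8 probe set was dim throughout, with 8.2 and 15.6 in the knock-down pool against 72.1 and 78.4 in the empty-vector pool, a difference of -1.65.

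ADAM22 lacks a working protease site and is known as a neuronal receptor of the LGI proteins. Its brightest probe set had 159.7 and 133.4 in the knock-down pool against 200.1 and 229.9 in the empty-vector pool, a difference of -0.50. Its 4 other measured probe sets had the opposite sign, from 0.75 to 1.24. Of these, 208237_x_at met the size rule as higher, with 155.6 and 171.4 in the knock-down pool against 75.7 and 44.9 in the empty-vector pool. All 4 were measured through the knock-down pool alone, so the brightness limit favours their sign. The dim probe sets of ADAM22 gave 0.28, -0.12 and -0.47. The direction of ADAM22 therefore depended on the probe set. Of the 4, 3 have identifiers ending in _x_at, which marks probes shared with other transcripts.

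**Figure D2:**
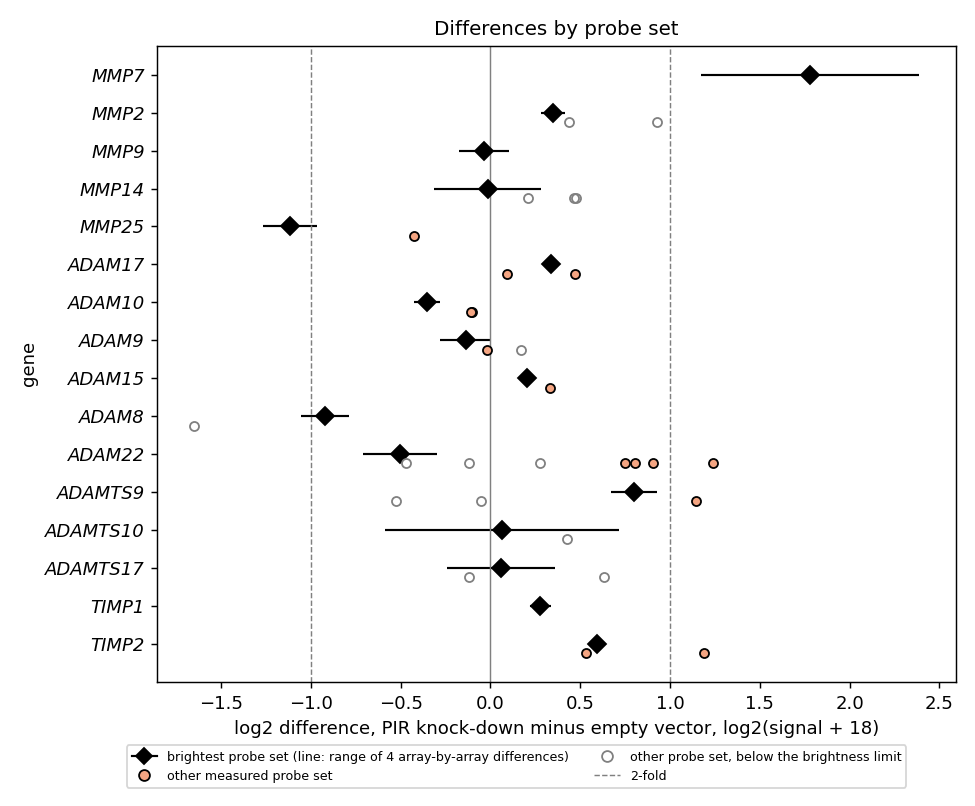
Log2 difference, knock-down minus empty vector, for every probe set of the 16 measured genes; diamonds are the brightest probe set with the range of its 4 array-by-array differences, circles the others, open where dim, and dashed lines mark 2-fold. The 3 TIMP2 probe sets lie on the same side of 0, while those of ADAM22 lie on both sides.

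Of the ADAMTSs, ADAMTS9 differed most among the measured ones. ADAMTS9, which cuts the proteoglycans aggrecan and versican, had intensities of 417.6 and 414.7 in the knock-down pool against 253.7 and 211.1 in the empty-vector pool. The pools did not overlap, with means of 416 ± 2.05 for knock-down and 232 ± 30.1 for empty vector, and the difference was 0.80, or 1.74-fold, with array-by-array differences of 0.67 to 0.93. Its second measured probe set, 1554697_at, gave 1.15 and met the size rule, with 170.7 and 215.6 in the knock-down pool against 99.2 and 58.9 in the empty-vector pool. Its 2 dim probe sets gave -0.05 and -0.53.

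ADAMTS10, linked to fibrillin microfibrils, had 177.3 and 124.8 in the knock-down pool against 100.9 and 196.8 in the empty-vector pool. ADAMTS17, a relative with little-known substrates, had 181.6 and 181.1 in the knock-down pool against 137.5 and 217.8 in the empty-vector pool. For both genes the empty-vector arrays lay on either side of the knock-down arrays, and the differences of 0.06 each changed sign without empty-vector replica 1 (-0.36 and -0.24). The ADAMTS10 probe set, 230341_x_at, has probes shared with other transcripts.

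TIMP1 and TIMP2 were both higher in the knock-down pool, by less than 2-fold on their brightest probe sets. TIMP1, an inhibitor of most secreted MMPs, had intensities of 9921.7 and 10478.3 in the knock-down pool against 8524.4 and 8281.0 in the empty-vector pool. The pools did not overlap, and the difference was 0.28, or 1.21-fold. TIMP2, which inhibits MMPs and also takes part in the activation of MMP2 by MMP14, had 2620.8 and 2702.3 in the knock-down pool against 1733.9 and 1774.8 in the empty-vector pool. The means were 2662 ± 57.6 for knock-down and 1754 ± 28.9 for empty vector, a difference of 0.60, or 1.51-fold, with array-by-array differences of 0.56 to 0.63.

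All 3 TIMP2 probe sets were measured and higher in the knock-down pool. The probe set 224560_at had 1407.4 and 1275.2 in the knock-down pool against 614.2 and 541.0 in the empty-vector pool, a difference of 1.19 that met the size rule. The third gave 0.53. TIMP3, the inhibitor of ADAM17, had 67.1 and 13.7 in the knock-down pool against 59.4 and 22.8 in the empty-vector pool. TIMP4, the inhibitor known from heart and brain, had 2.2 and 1.8 in the knock-down pool against 16.9 and 2.8 in the empty-vector pool. These values were all below the brightness limit, where a difference could not be read with confidence.

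Counted by probe set, the genes had 145, of which 30 were measured. Among these, 4 met the size rule as higher (MMP7, TIMP2, ADAMTS9 and ADAM22, 1 probe set each), where 2.39% of measured probe sets with 1 symbol did. The MMP7, ADAMTS9 and ADAM22 probe sets were measured through the knock-down pool alone, so nothing is read from this count. The MMP25 probe set was the only one to meet it as lower, where 1.42% did. Probe sets of 1 gene share their transcript and are not independent.

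The 48 dim genes were 17 MMPs, 14 ADAMs, 15 ADAMTSs, TIMP3 and TIMP4. Their signals ran from 1.4 to 224.5, and 6 of them reached the brightness limit on at least 1 array without doing so on both arrays of a pool. Their median SD between arrays was 0.33 on the log2 scale for knock-down arrays and 0.28 for empty-vector arrays, beside 0.07 and 0.07 for the 16 measured genes. Differences among dim genes ran from -1.24 to 0.66, with 24 positive and 24 negative. Arrays did not overlap for 3 dim genes that were higher, where 14.3% of all dim genes did so, and for 12 that were lower, where 21.9% did.

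Of the dim genes, 2 differed by more than 2-fold without reaching the limit on both arrays of a pool. ADAMTS14, a procollagen peptidase named after its values were seen, had 45.0 and 19.3 in the knock-down pool against 73.2 and 125.9 in the empty-vector pool, a difference of -1.24. ADAMTS4, an aggrecanase, had 11.2 and 27.7 in the knock-down pool against 38.0 and 83.6 in the empty-vector pool, a difference of -1.05. The arrays of each pool differed widely for both genes, so these sizes are uncertain.

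ADAM19, a protease that cuts neuregulin, was dim but steady, with 75.3 and 76.6 in the knock-down pool against 104.2 and 99.2 in the empty-vector pool, a difference of -0.35. ADAM28, an ADAM of lymphocytes, had 24.0 and 114.7 in the knock-down pool against 31.9 and 87.2 in the empty-vector pool, so its arrays disagreed within each pool. ADAMTS13, the protease of von Willebrand factor, showed the same spread, with 66.3 and 147.8 in the knock-down pool against 156.3 and 54.6 in the empty-vector pool. MMP19, ADAMTS1 and ADAMTS5 had overlapping arrays and differences of 0.04, -0.18 and 0.03.

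**Figure D3:**
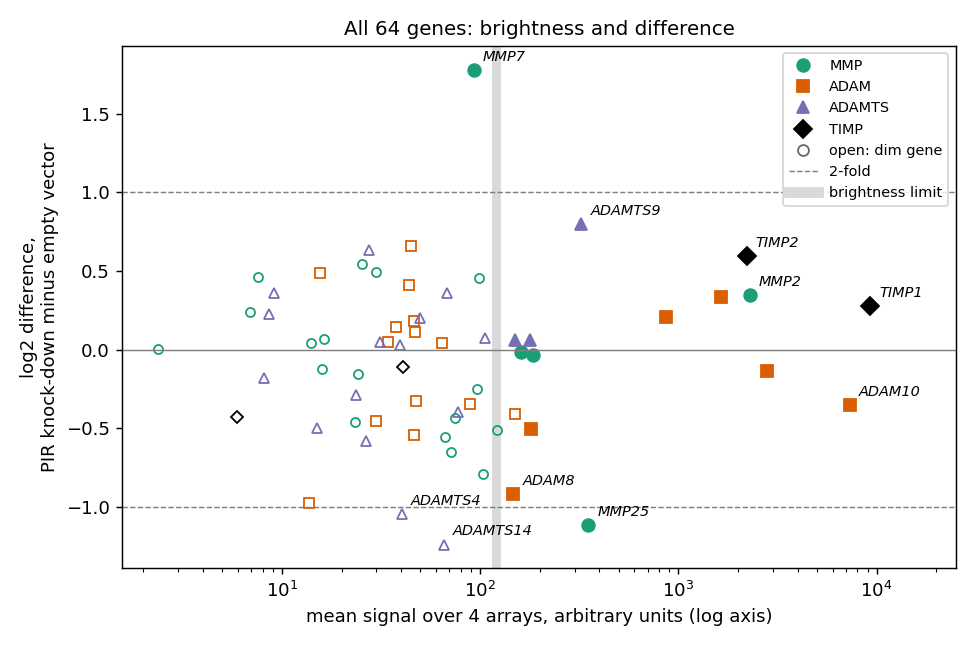
Mean signal over 4 arrays (log axis) against the log2 difference, knock-down minus empty vector, for all 64 genes, coloured by family, with dim genes open, the brightness limit as a grey band and 2-fold as dashed lines. Most genes lie left of the band; MMP7, whose mean lies left of the band, and MMP25 are the filled points beyond 2-fold.

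Genes that act with the metalloproteinases were listed by known function, in 4 lists, and CD44 and LRP1 stand in both the list of activators, inducers and inhibitors and the list of shed substrates. Of 19 activators, inducers and inhibitors of MMPs outside the families that were on the platform, 10 were measured and none met the size rule, beside 2.43% higher and 1.10% lower among all measured genes. Positive differences were found for 8 of the 10, beside 55.2%, and their median was 0.27, beside 0.05. The largest difference among them, chosen here after the values were seen, was that of RECK, a membrane-anchored inhibitor of MMPs. RECK had 1060.0 and 1072.5 in the knock-down pool against 576.8 and 545.1 in the empty-vector pool, a difference of 0.91 with no overlap. Its 3 other measured probe sets gave 0.09, -0.26 and -0.67, so they did not share this difference. Among the other positive genes, second measured probe sets gave -0.39 without overlap for PCSK7 and 0.48 for PLAU. The other PLAUR probe sets gave 0.003 and -0.04, with overlapping arrays. CD44 is counted as positive with 0.04 and overlapping arrays, and its other measured probe sets ran from -0.04 to 0.85.

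The iRhoms and TspanC8 tetraspanins escort ADAM17 and ADAM10 to the cell surface. The list of 9 genes held these and FRMD8, which is neither. Of the 9, 7 were measured and none met the size rule, beside the same 2.43% and 1.10%. Positive differences were found for 5 of the 7, beside 55.2% of all measured genes, and the median was 0.13, beside 0.05. The 5 include FRMD8, whose own difference of 0.13 is this median, and also TSPAN10, which was measured through the knock-down pool alone. Of the 5, TSPAN5, TSPAN10 and TSPAN33 had overlapping arrays, while RHBDF2 and FRMD8 did not. The negative genes, TSPAN14 and TSPAN17, had no overlap. TSPAN14, a TspanC8 partner of ADAM10 chosen after the values were seen, had 655.7 and 567.7 in the knock-down pool against 1127.0 and 1046.8 in the empty-vector pool. Its difference was -0.81 with no overlap, and its other probe set gave -0.87.

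Among 30 genes on the platform whose products are shed by ADAM10 or ADAM17, 20 were measured, with 10 positive and 10 negative differences, beside 55.2% positive among all measured genes, and a median of 0.01, beside 0.05. DLL1, a Notch ligand, was the only one of the 20 to meet the size rule, as higher, where 2.43% of measured genes did. DLL1 had 1137.2 and 995.9 in the knock-down pool against 542.8 and 502.8 in the empty-vector pool, a difference of 1.00 at the 2-fold limit, and its other probe set was dim.

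Among 21 matrix genes whose products these enzymes cut, 7 were measured, 6 had positive differences, beside 55.2% of all measured genes, and the median was 0.46, beside 0.05. Of the 6, HSPG2, COL4A1 and COL1A1 were measured through the knock-down pool alone, and COL6A2, the 1 negative gene, through the empty-vector pool alone, so this count and median rest in part on the brightness limit. BCAN is counted as positive with 0.16, but its other measured probe set gave -1.06 without overlap and met the size rule as lower. That probe set had 56.6 and 92.7 in the knock-down pool against 203 and 144.1 in the empty-vector pool. It was measured through the empty-vector pool alone. Second measured probe sets gave 0.60 for COL4A2 and 0.52 for LAMC1. On the brightest probe sets, HSPG2 was the only one of the 7 to meet the size rule, as higher, where 2.43% of measured genes did. HSPG2 encodes the basement-membrane proteoglycan perlecan. It had 256.1 and 228.6 in the knock-down pool against 72.9 and 113.5 in the empty-vector pool, a difference of 1.25, with both empty-vector arrays below the brightness limit and a second, dim probe set at -0.43.

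**Figure D4:**
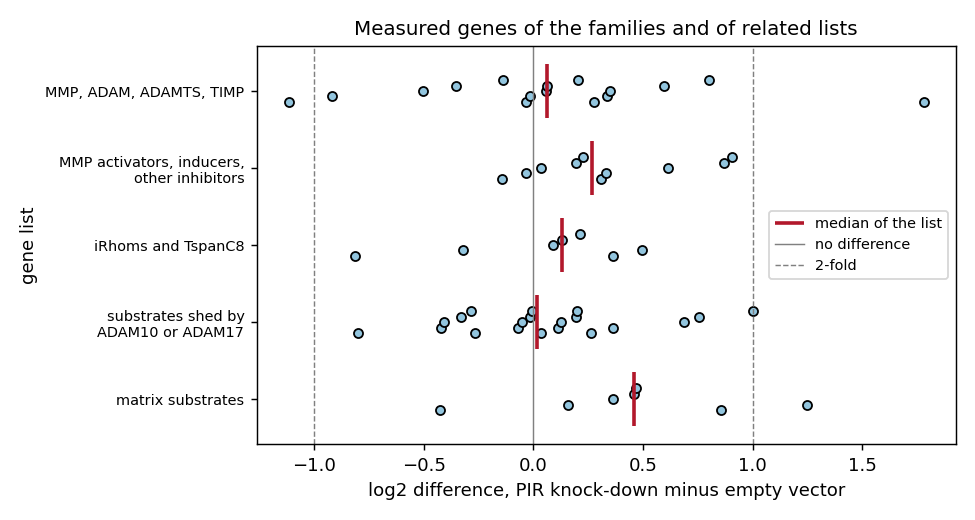
Log2 difference, knock-down minus empty vector, of each measured gene (points) in the metalloproteinase families and in 4 related lists, with the median of each list as a red bar and 2-fold as dashed lines. The medians are 0.06, 0.27, 0.13, 0.01 and 0.46 from top to bottom, and MMP7, MMP25, DLL1 and HSPG2 lie at or beyond 2-fold.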

How the data were processed

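The deposited values are linear signal intensities, 1 for each probe set on each array. The authors produced them with GCOS, per the submitters' processing notes (settings not given in the sources used here). On every array the trimmed mean (2% of probe sets off each end) was 500.07, so the arrays share a scale; the values are not centred and carry no direction. Of 54675 probe sets, 62 controls were left out; 41091 had 1 gene symbol, 1801 had several and 11721 had none. Gene identifiers of all 64 genes matched RefSeq under the same symbol. The brightest probe set had the highest mean log2 signal over the 4 arrays, and selecting on log2(signal + 18) changed 1 of the 64.

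The arrays of a pool were averaged as 1 sample and no test was run; the number of arrays limits the precision. The size rule was also run on simulated data with noise taken from repeat hybridisations. This cannot speak to variation between samples of a condition, and nothing is concluded from it here. Named genes were every measured member, 12 dim members of known interest, and list genes that met the size rule; others are marked. Members, lists and rules were chosen with earlier results of these data known. Alternatives covered pseudocount, brightness limit, scaling, fold limit, margin, probe set choice, symbol rule and arrays left out. Python 3.11.15, pandas 2.3.3, numpy 2.4.6 and matplotlib 3.10.9 were used.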

Additional observations from a re-analysis of the deposited data

How the results depend on the processing

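MMP7 met the size rule under every alternative except the brightness limit at the 75th percentile, under which 0 genes of the families did so as higher; the 1.5-fold limit added TIMP2 and ADAMTS9 (3 higher). MMP25 was the 1 lower gene. The count of lower genes was 0 with a pseudocount of 72, median scaling or the mean over all probe sets, and 2 with no pseudocount or the 1.5-fold limit (ADAM8 added) or no brightness limit (ADAMTS14 added). With 1 array left out there were 0 to 2 lower genes: 0 without knock-down replica 2, and, beside MMP25, ADAM8 without knock-down replica 1, ADAMTS14 without empty-vector replica 1 and MMP1 without empty-vector replica 2. The median of the measured genes was 0.24 at the 75th percentile and 0.27 over all probe sets, and ran from -0.23 (without empty-vector replica 1) to 0.19 with 1 array left out. Over all measured genes the size rule gave 363 genes, and 239 with the larger pseudocount, 842 with no brightness limit, 226 at the 75th percentile, 223 over all probe sets and 1109 at 1.5-fold. Median scaling shifted the median of all genes to 0.10, against -0.001 as deposited, and gave 339 higher and 76 lower genes in place of 250 and 113; with no brightness limit there were 439 and 403. Median scaling turned MMP9 to 0.08 and MMP14 to 0.10. With the replicate block, which used the differences between arrays of the same replica number, the counts were 1 higher, 1 lower and 370 over all measured genes; the numbers mark hybridisations and pair nothing. Beyond the constructions named, the causes were not tested.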

Other observations

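Several transcripts next to the metalloproteinase genes, outside the rule for the families and chosen after their values were seen, were also present on the arrays. MMP25-AS1, named as an antisense RNA of MMP25, was dim on both of its probe sets. The probe set 239180_at had 47.4 and 48.7 in the knock-down pool against 88.0 and 88.7 in the empty-vector pool, a difference of -0.69, and 228085_at gave -0.48. All 4 probe sets of MMP24OS, a gene that neighbours MMP24, were measured and had lower means in the knock-down pool. Their differences ran from -0.78 to -0.20, and none met the size rule. The arrays overlapped for 225860_at, which gave -0.20, and not for the other MMP24OS probe sets. ADAMTSL4, an ADAMTS-like protein without a protease domain, was measured on 1 of its probe sets, with 308.0 and 177.5 in the knock-down pool against 173.4 and 193.2 in the empty-vector pool, and these arrays overlapped.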
